A study of Homo sapiens with 4 samples.

Results

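The mitochondrial genome carries 37 of the 58735 genes listed in the deposited tables, and these 37 genes were taken as all rows placed on chromosome MT. They comprised 2 rRNA genes, 13 mRNA genes and 22 tRNA genes, of which 28 were listed on the plus strand and 9 on the minus strand. RNA came from HCT116, an established human colon cancer cell line, after knockdown of RBM25 by shRNA (labelled RBM25 sh) or with a control shRNA (labelled Control sh), with 2 libraries in each group, called knockdown and control libraries here. RBM25 is an RNA-binding protein of the nuclear splicing machinery. The labels give no shRNA sequence, time after knockdown or clone, and do not say whether the libraries of a group came from separate cultures, so the p-values rest on a spread between libraries that may be technical only. In bulk RNA a lower level per cell and a smaller share of cells that carry the RNA cannot be told apart.

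Mitochondrial genes are transcribed from both strands of a circular genome as long precursor RNAs that start in the noncoding control region. The tRNA genes lie between most of the other genes, and nucleases cut the precursor at the ends of each tRNA, which releases the rRNAs and mRNAs. The rRNAs form the mitochondrial ribosome with proteins imported from the cytosol, and the mRNAs encode membrane subunits of respiratory complexes I, III and IV and of the ATP synthase (complex V).

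The genes were packed closely. Of the 36 neighbouring pairs, 20 touched with no base between them, 5 overlapped and 11 had a gap, the largest of 31 bases. The first genes of the plus strand ran without a gap from MT-TF (MT:577-647) through MT-RNR1 (MT:648-1601), MT-TV (MT:1602-1670) and MT-RNR2 (MT:1671-3229) to MT-TL1 (MT:3230-3304). The borders of both rRNA genes are printed here because MT-RNR1 and MT-TV, the tested mitochondrial genes with the 2 largest log2 fold changes, meet at 1 of them. Capitals mark the tRNA genes and lower case marks 30 bases of the adjoining rRNA gene, 5′ to 3′ on the plus strand of GRCh38, from the GENCODE 29 transcripts.
MT-TF to MT-RNR1, MT:577-677: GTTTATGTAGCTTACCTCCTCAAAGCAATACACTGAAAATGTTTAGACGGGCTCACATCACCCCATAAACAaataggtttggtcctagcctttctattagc
MT-RNR1 to MT-TV to MT-RNR2, MT:1572-1700: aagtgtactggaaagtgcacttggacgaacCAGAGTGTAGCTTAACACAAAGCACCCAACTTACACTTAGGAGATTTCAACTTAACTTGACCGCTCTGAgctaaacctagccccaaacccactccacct
MT-RNR2 to MT-TL1, MT:3200-3304: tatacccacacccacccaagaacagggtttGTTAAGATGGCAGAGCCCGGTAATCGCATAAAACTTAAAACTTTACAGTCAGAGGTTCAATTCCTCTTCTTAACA
In each of these stretches the tRNA gene began at the base after the rRNA gene or ended at the base before it, so a cut at a tRNA end is also an rRNA end.

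Total counts ran from 15528274 to 16982663 per library. Levels are given as CPM (counts scaled to library size, with the TMM method) or, where genes are compared with each other, as the deposited FPKM, which also divides by gene length. RBM25 itself stood at 155 and 115 CPM in the controls and at 44.0 and 35.7 CPM in the knockdown libraries, and fell by 1.76 ± 0.30 on the log2 scale (SE, edgeR adjusted p = 0.0195). The edgeR adjusted p was 0.0797 without RBM25_sh replicate 1 and 0.152 without replicate 2, and limma-trend on log2(FPKM + 1) gave 0.0572, so the call was lost in these 3 settings, with RBM25 lower in each. Of 10 markers of colon epithelium, 6 were above 1 CPM in every library, with a summed level of 3405 to 5516 CPM, while CDX1 was at 0 and VIL1, LGALS4 and CDH17 were below 1 CPM. Of 13 markers of leukocytes, fibroblasts, endothelium and muscle, COL1A1, DES and MYH11 were above 1 CPM in every library and CD3E, COL1A2 and CDH5 were at 0. Their summed level was 47.5 and 71.1 CPM in the controls and 49.7 and 61.9 CPM in the knockdown libraries.

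The clearest difference among the mitochondrial genes was in MT-RNR1, which encodes the rRNA of the small ribosomal subunit. Its level was 1092 and 924 CPM in the controls and 8975 and 8376 CPM in the knockdown libraries, from counts of 17266, 16567, 133943 and 131452. Both knockdown libraries lay far above both controls, and libraries of a group were close to each other. The mean rose from 1008 ± 119 to 8675 ± 424 CPM (SD, n = 2), which is 8.61-fold (log2 fold change 3.11 ± 0.26, edgeR adjusted p = 0.0024). By p-value it ranked 2 and by log2 fold change 29 among 16091 genes tested. Among the 10481 genes with an average log2 CPM of at least 3 it ranked 3 by log2 fold change. The call held under all 16 alternative settings, with log2 fold changes of 2.99 to 3.23.

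MT-RNR2, which encodes the rRNA of the large ribosomal subunit, differed much less. It stood at 11135 and 8557 CPM in the controls and at 19210 and 17256 CPM in the knockdown libraries. The groups did not overlap, but the 1.85-fold difference (log2 fold change 0.89 ± 0.24) did not pass the threshold (edgeR adjusted p = 0.0775). It passed with offsets that remove each library's trend on GC content (adjusted p = 0.0259, edgeR), without a filter on low counts (adjusted p = 0.00806, edgeR) and with the DESeq2 Wald test (adjusted p = 0.0346). With limma-trend on log2 FPKM it did not pass (adjusted p = 0.292 with a pseudocount of 1, 0.293 with 0.1). The log2 fold change was 1.09 and 0.71 without Control_sh replicate 1 and 2, and 0.81 and 0.99 without RBM25_sh replicate 1 and 2. Over the 16 alternatives its adjusted p ran from 1.35e-05 to 0.338.

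The balance between the rRNAs therefore differed between the groups. MT-RNR2 counts were 10.2 and 9.26 times those of MT-RNR1 in the controls, and 2.14 and 2.06 times in the knockdown libraries. Per gene length, MT-RNR1 had an FPKM of 0.16 and 0.18 times that of MT-RNR2 in the controls and 0.76 and 0.79 times after RBM25 knockdown. This ratio is taken within a library and does not depend on how libraries are scaled. In both groups the spread between libraries was small beside the difference of −2.21 in the log2 ratio of MT-RNR2 to MT-RNR1. For this and every other ratio per library the exact two-sided permutation test of 2 libraries against 2 cannot give a p below 0.333, and it gave 0.333 here.

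MT-TV, the valine tRNA gene between the rRNA genes, differed nearly as much as MT-RNR1. It had 35 and 30 counts in the controls and 190 and 229 counts in the knockdown libraries. Its level rose from 2.21 and 1.67 CPM to 12.7 and 14.6 CPM, a 7.03-fold difference (log2 fold change 2.81 ± 0.36, edgeR adjusted p = 0.00803), and the call held under all 16 alternative settings. Its FPKM was 0.0280 and 0.0250 times that of MT-RNR1 in the controls and 0.0196 and 0.0241 times in the knockdown libraries. The gene is 69 bases long and shares both borders with the rRNA genes, as printed above, so fragments that cross a border may have been counted for either gene. MT-TF, on the other side of MT-RNR1, had 3, 4, 5 and 2 counts and was not tested.

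**Figure D1:**
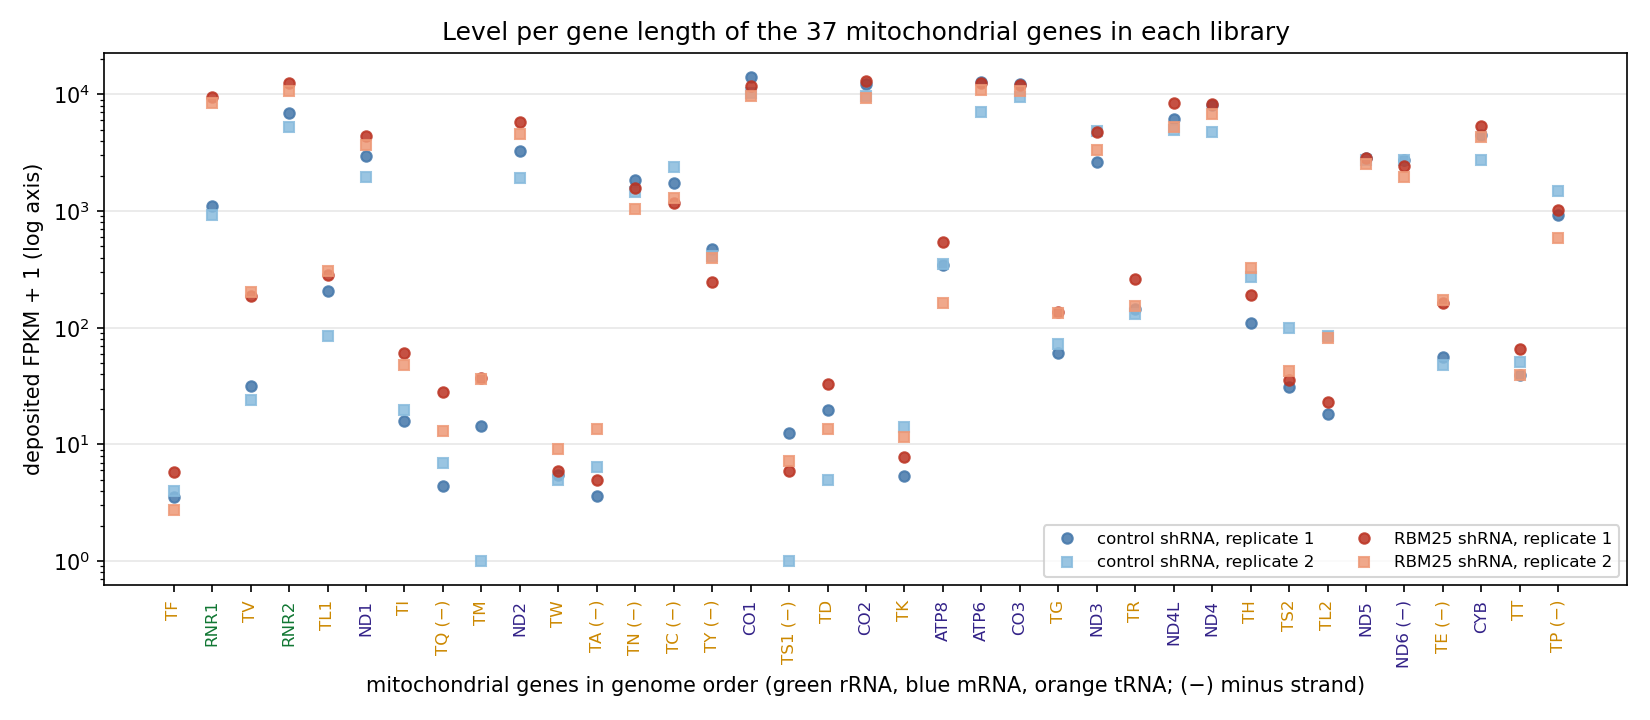
Deposited FPKM + 1 of the 37 genes in genome order on a log axis, with 1 point per library (blue for control shRNA, red for RBM25 shRNA). MT-RNR1 and MT-TV lie well apart between the groups, whereas the points of most mRNA genes mix.

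With the rRNA genes, the make-up of the mitochondrial counts also differed. The rRNA genes took 12.7% and 13.5% of the mitochondrial counts in the controls and 25.4% and 26.5% in the knockdown libraries. The mRNA genes took 86.9% and 85.9% in the controls against 74.3% and 73.1%. Within the rRNA genes, MT-RNR1 held 8.93% and 9.75% of the counts in the controls and 31.8% and 32.7% after knockdown. All 37 genes together took 9.81% and 7.44% of the control libraries and 10.7% and 9.29% of the knockdown libraries, and these ranges overlapped (exact permutation p = 0.667, two-sided). The share of the library on the mRNA genes overlapped too, at 8.52% and 6.39% against 7.94% and 6.79%.

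**Figure D2:**
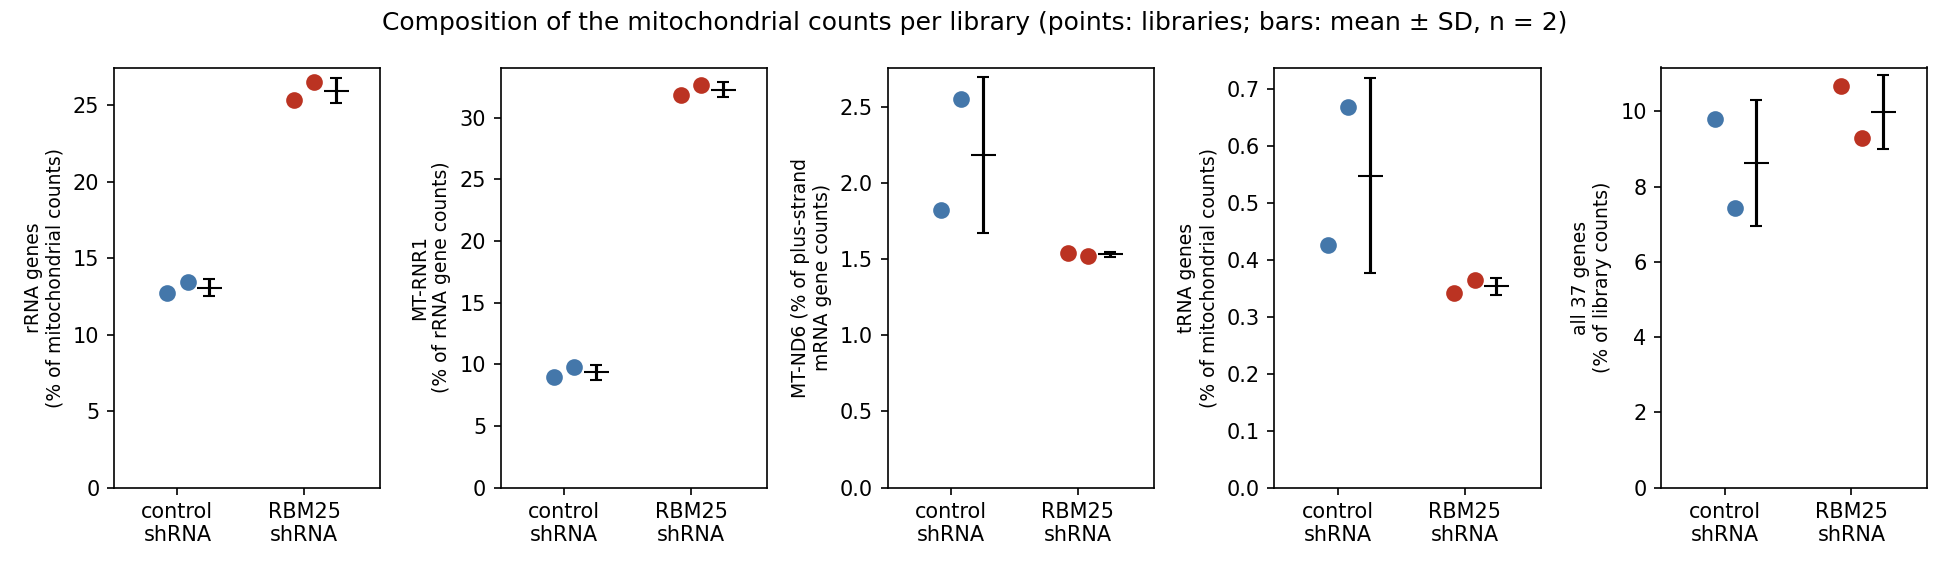
Shares of counts in each library, in percent on axes that start at 0, with points for libraries and bars for the mean ± SD (n = 2). The rRNA share and the MT-RNR1 share do not overlap between the groups, while the share of all 37 genes does.

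None of the 13 mRNA genes passed the threshold, which 3.05% of all genes tested passed, so few or none would be called at that share. An unadjusted edgeR p below 0.05 was found in 2 of them, MT-ND1 and MT-ND2, and in at least 3026 of all 16091 genes tested. The median log2 fold change of the 13 mRNA genes was 0.08, beside −0.04 over all genes tested. The median changed sign with library totals alone (−0.04), with GC offsets (−0.06), and without Control_sh replicate 2 (−0.12) or RBM25_sh replicate 1 (−0.10), so no direction is given for the mRNA genes as a group.

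Among the complex I genes, those nearest the rRNA genes had the largest differences. MT-ND1 (MT:3307-4262), which follows MT-TL1, stood at 2933 and 1948 CPM in the controls and at 4148 and 3676 CPM in the knockdown libraries (log2 fold change 0.68 ± 0.28, edgeR adjusted p = 0.193). MT-ND2 (MT:4470-5511) stood at 3572 and 2085 CPM against 6037 and 4955 CPM (0.96 ± 0.30, edgeR adjusted p = 0.115). Both genes encode core membrane subunits of the proton-pumping arm of complex I. In each, the knockdown libraries were above both controls, and Control_sh replicate 2 was the lowest library. Without Control_sh replicate 1 the log2 fold changes were 1.01 and 1.40, and without Control_sh replicate 2 they were 0.42 and 0.62.

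The other plus-strand complex I genes had differences smaller than their SE. MT-ND3 (MT:10059-10404) stood at 939 and 1740 CPM in the controls and at 1637 and 1195 CPM in the knockdown libraries. MT-ND4L stood at 1913 and 1544 against 2466 and 1611 CPM, and MT-ND4, with which it shares 7 bases and a bicistronic mRNA, at 11683 and 6889 against 11235 and 9651 CPM. In all 3 genes the groups overlapped. MT-ND5 stood at 5364 and 5173 CPM in the controls and at 5106 and 4797 CPM in the knockdown libraries, without overlap but with a log2 fold change of −0.09 ± 0.23.

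The genes of complexes III, IV and V also overlapped between the groups. MT-CYB, the cytochrome b of complex III, stood at 5305 and 3286 CPM in the controls and at 6025 and 5101 CPM in the knockdown libraries (0.37 ± 0.28, edgeR adjusted p = 0.486). Without Control_sh replicate 1 its log2 fold change was 0.76, and without Control_sh replicate 2 it was 0.07. MT-CO1, the catalytic subunit of complex IV (cytochrome c oxidase), stood at 22500 and 16565 against 17968 and 15615 CPM (−0.22 ± 0.24, edgeR adjusted p = 0.653). MT-CO2, which receives electrons from cytochrome c, had 8754 and 6925 against 8880 and 6589 CPM. MT-CO3, the remaining mitochondrially encoded subunit of that complex, had 10080 and 7829 against 9268 and 8757 CPM, and the log2 fold change of either gene was within 0.02 of 0. MT-ATP6, a subunit of the proton channel of the ATP synthase, had 9065 and 4991 against 8444 and 7671 CPM. Without Control_sh replicate 1 the log2 fold changes of MT-ATP6 and MT-ND4 were 0.69 and 0.60, and without Control_sh replicate 2 they were −0.17 and −0.16. MT-ATP8, which shares 46 bases with MT-ATP6, was the least stable between libraries of a group, with 112 CPM in RBM25_sh replicate 1 and 35.0 CPM in replicate 2, beside 74.2 and 76.4 CPM in the controls.

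The share of each gene in the mRNA counts sets the genes against each other within a library. MT-ND1 took 3.51% and 3.22% of the mRNA counts in the controls and 5.02% and 5.20% after knockdown, and MT-ND2 took 4.27% and 3.44% against 7.31% and 7.01%. MT-CYB took 6.34% and 5.43% against 7.30% and 7.21%. MT-CO1, the gene with the most counts, took 26.9% and 27.4% in the controls and 21.8% and 22.1% in the knockdown libraries. The shares of MT-ND1, MT-ND2 and MT-CYB were thus higher in both knockdown libraries than in both controls. The shares of MT-CO1 and MT-ND6 were lower, and those of the other 8 genes overlapped. The exact permutation p was 0.333 for each of the 5, the smallest that 2 libraries against 2 can give. Such separation was common, as the groups did not overlap in CPM in 51.8% of all genes tested. The shares within a library add up to a fixed total, so they are not independent of each other.

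By FPKM, the 4 highest mRNA genes were MT-CO1, MT-CO2, MT-CO3 and MT-ATP6 in both groups, with means of 9922 to 12175 FPKM in the controls and 10760 to 11685 FPKM in the knockdown libraries. Neighbours in that order did not differ beyond their spread between libraries. The next were MT-ND4 (6479 ± 2381 FPKM in the controls, SD, n = 2) and MT-ND4L (5594 ± 860 FPKM), and MT-ATP8 was the lowest (350 ± 6.45 FPKM). MT-ND1, at 2454 ± 706 FPKM in the controls, did not differ from MT-ND2, MT-ND5 and MT-ND6 beyond its spread there, and stood at 4043 ± 485 FPKM after knockdown. MT-RNR1, at 1016 ± 122 FPKM, was below 12 of the 13 mRNA genes in the controls, and at 8978 ± 749 FPKM it was below the 4 highest in the knockdown libraries.

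Many mitochondrial mRNAs lack a full stop codon in the DNA and gain it from the poly(A) tail. In the GENCODE 29 sequences, 6 of the 13 mRNA genes ended 1 or 2 bases after their last full codon, namely MT-ND1, MT-ND2, MT-CO3, MT-ND3, MT-ND4 and MT-CYB. Their median log2 fold change was 0.27, and that of the 7 genes whose listed sequence ended on a full codon was −0.03. The ranges overlapped, from 0.01 to 0.96 in the former and from −0.38 to 0.24 in the latter. Among these 7, MT-CO1 ended in AGA and MT-ND6 in AGG, and MT-ATP6 ended in TAA but shares its last base with MT-CO3. Along the plus strand, Spearman's rho between start position and log2 fold change was −0.424 over the 14 rRNA and mRNA genes and −0.0979 over the 12 mRNA genes. These genes share precursors and libraries, so the values are descriptions of these genes only.

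**Figure D3:**
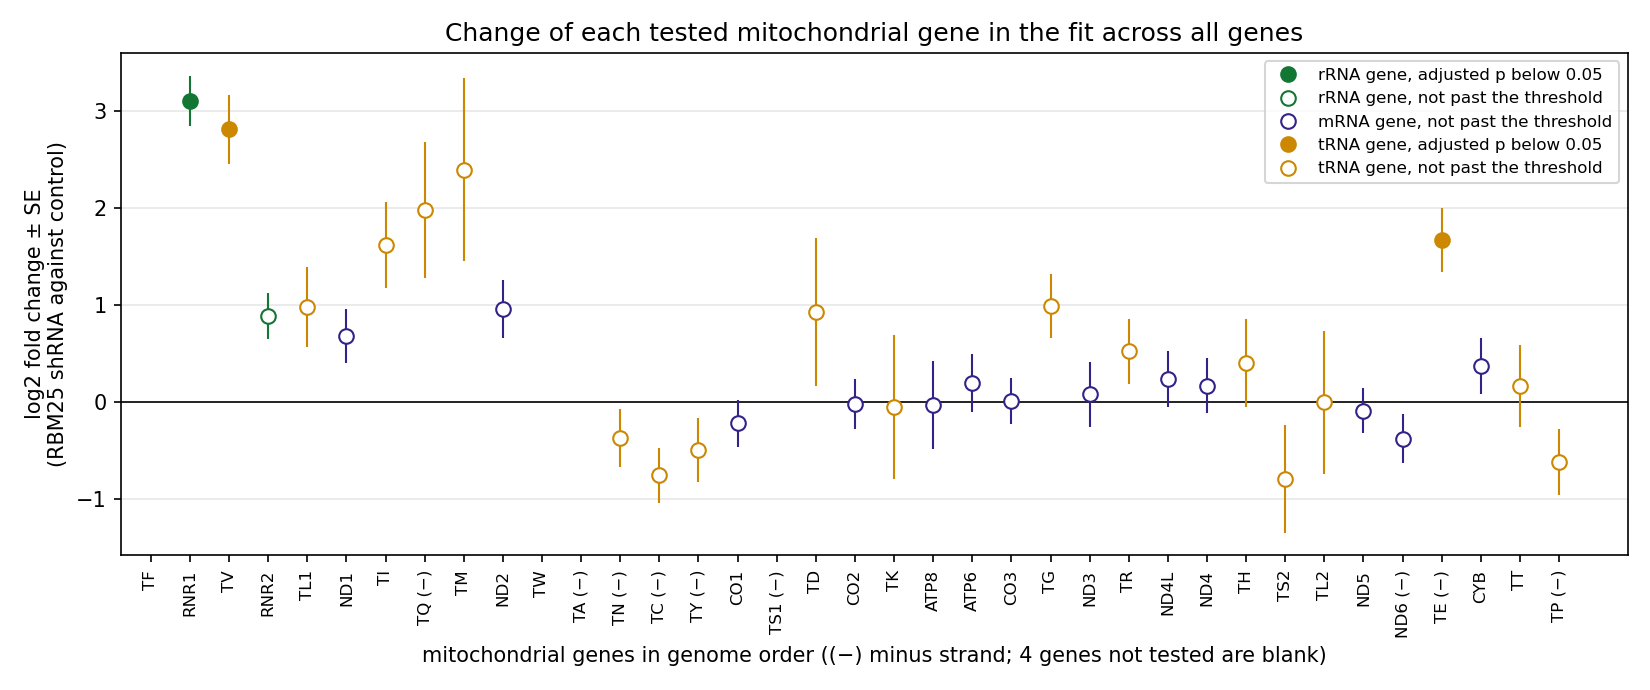
Log2 fold change ± SE of the 33 genes tested, in genome order, with filled points for genes past the adjusted p of 0.05. MT-RNR1, MT-TV and MT-TE are filled, and most mRNA genes after MT-ND2 lie near 0.

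The minus strand carries MT-ND6, a complex I subunit and the only mRNA gene on that strand, and 8 tRNA genes. The strand setting of the counting is not given in the sources used here, so RNA of a minus-strand gene and plus-strand precursor through the same bases cannot be told apart. MT-ND6 (MT:14149-14673) stood at 1499 and 1504 CPM in the controls and at 1253 and 1059 CPM in the knockdown libraries. Both knockdown libraries were lower, but the log2 fold change of −0.38 ± 0.25 did not pass the threshold (edgeR adjusted p = 0.426). With GC offsets it was −0.55 ± 0.18 and passed (edgeR adjusted p = 0.0445, with a range of 0.0134 to 0.920 over the 16 alternatives). MT-ND6 counts were 1.82% and 2.55% of the plus-strand mRNA counts in the controls and 1.54% and 1.52% after knockdown.

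MT-TE, the glutamate tRNA gene, touches MT-ND6 and was the only minus-strand gene called. It had 62 and 61 counts in the controls and 165 and 193 counts in the knockdown libraries, and rose from 3.92 and 3.40 CPM to 11.1 and 12.3 CPM. The difference was 3.19-fold (log2 fold change 1.67 ± 0.33, edgeR adjusted p = 0.0315). The edgeR adjusted p was 0.0627 without RBM25_sh replicate 1 and 0.0834 without RBM25_sh replicate 2, with log2 fold changes of 1.75 and 1.62. The FPKM of MT-TE was 0.0199 and 0.0172 times that of MT-ND6 in the controls and 0.0672 and 0.0884 times after knockdown, and of these touching genes MT-TE was higher and MT-ND6 lower in both knockdown libraries.

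The 4 tRNA genes with the most counts in the controls, MT-TN, MT-TC, MT-TP and MT-TY, were on the minus strand, and their sequences are given with MT-TE for that reason. They are printed 5′ to 3′ as transcribed from the minus strand (GRCh38, GENCODE 29 transcripts), and capitals mark the anticodon, found as a triplet within a loop of 7 bases closed by a stem of 5 pairs.
MT-TN (asparagine), MT:5657-5729: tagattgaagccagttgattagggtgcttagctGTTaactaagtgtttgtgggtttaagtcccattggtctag
MT-TC (cysteine), MT:5761-5826: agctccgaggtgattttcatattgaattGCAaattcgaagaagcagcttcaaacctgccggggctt
MT-TY (tyrosine), MT:5826-5891: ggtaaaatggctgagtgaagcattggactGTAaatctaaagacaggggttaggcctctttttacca
MT-TE (glutamate), MT:14674-14742: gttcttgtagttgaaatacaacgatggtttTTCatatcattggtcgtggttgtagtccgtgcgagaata
MT-TP (proline), MT:15956-16023: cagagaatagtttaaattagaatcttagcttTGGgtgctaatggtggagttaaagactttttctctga
MT-TN, MT-TC and MT-TY lie side by side around the origin of light-strand replication, and MT-TC shares 1 base with MT-TY.

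MT-TC had 118 and 163 CPM in the controls and 77.3 and 89.6 CPM in the knockdown libraries (log2 fold change −0.75 ± 0.29, edgeR adjusted p = 0.169). MT-TY had 32.4 and 28.3 against 16.1 and 27.1 CPM (−0.49 ± 0.33, edgeR adjusted p = 0.428). Both genes were lower in both knockdown libraries and neither passed the threshold. MT-TN had 139 and 111 against 115 and 78.4 CPM, and MT-TP had 65.9 and 105 against 69.3 and 41.9 CPM, with overlap in both. With GC offsets MT-TC (−0.87 ± 0.21, edgeR adjusted p = 0.0173) and MT-TN (−0.58 ± 0.14, edgeR adjusted p = 0.0153) passed as lower. Over the 16 alternatives the adjusted p reached 0.874 for MT-TC and 0.968 for MT-TN. Without Control_sh replicate 1 the log2 fold changes of MT-TC and MT-TP were −0.97 and −0.91, and without Control_sh replicate 2 they were −0.50 and −0.25. The remaining minus-strand tRNA genes had few counts, and of these only MT-TQ was tested, with 4 and 8 counts in the controls and 29 and 14 counts after knockdown (1.98 ± 0.70, edgeR adjusted p = 0.147).

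On the plus strand the tRNA genes were low, and MT-TV was the only one called among 12 tested, beside 3.05% of all genes tested. MT-TL1, the leucine tRNA gene after MT-RNR2, had 16.1 and 6.58 CPM in the controls and 20.8 and 24.0 CPM in the knockdown libraries (0.98 ± 0.41, edgeR adjusted p = 0.205). MT-TI, the isoleucine tRNA gene after MT-ND1, had 1.08 and 1.34 against 4.09 and 3.38 CPM (1.62 ± 0.44, edgeR adjusted p = 0.0797). It passed without a filter on low counts (edgeR adjusted p = 0.0207) and with limma-trend on log2(FPKM + 1) (adjusted p = 0.0431). With GC offsets it did not pass (edgeR adjusted p = 0.0745). MT-TG, the glycine tRNA gene between MT-CO3 and MT-ND3, had 4.24 and 5.08 against 9.11 and 9.43 CPM (0.99 ± 0.33, edgeR adjusted p = 0.127). In these 3 genes both knockdown libraries were above both controls. For MT-TL1 the log2 fold change was 1.77 without Control_sh replicate 1 and 0.47 without Control_sh replicate 2.

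MT-TM, the methionine tRNA gene before MT-ND2, had 15 and 0 counts in the controls and 36 and 39 counts after knockdown (edgeR adjusted p = 0.184). It passed without a filter on low counts (edgeR adjusted p = 0.0031) and with a replicate block (edgeR adjusted p = 0.00016). With DESeq2 it did not pass (adjusted p = 0.617). Its log2 fold change of 2.40 ± 0.94 was 8.31 without Control_sh replicate 1, which leaves the control at 0 counts. MT-TR, the arginine tRNA gene, had 9.80 and 8.87 against 16.6 and 10.3 CPM. Its log2 fold change of 0.52 ± 0.34 was −0.01 with GC offsets. MT-TS2, a serine tRNA gene, had 1.83 and 6.03 against 2.01 and 2.55 CPM (−0.79 ± 0.55). Its sign turned without Control_sh replicate 2 (0.31), and the log2 fold change was −1.40 without Control_sh replicate 1. MT-TH, at 7.78 and 19.5 against 13.1 and 23.1 CPM, had a log2 fold change of 1.22 without Control_sh replicate 2 and of −0.11 without Control_sh replicate 1. The groups overlapped in the 6 plus-strand tRNA genes MT-TD, MT-TK, MT-TH, MT-TS2, MT-TL2 and MT-TT. Counts of the untested genes besides MT-TF were 5, 5, 5 and 9 for MT-TW, 3, 7, 4 and 14 for MT-TA and 13, 0, 5 and 7 for MT-TS1, in the order of both control and then both knockdown libraries.

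All 22 tRNA genes together held 0.427% and 0.669% of the mitochondrial counts in the controls and 0.343% and 0.364% in the knockdown libraries. The minus-strand genes made up 87.8% and 87.2% of these tRNA counts in the controls and 76.4% and 71.4% after knockdown. The median log2 fold change was 0.73 over the 12 plus-strand tRNA genes tested and −0.43 over the 6 on the minus strand. Of these 6, MT-TE (1.67) and MT-TQ (1.98, not past the threshold) were positive. A tRNA gene of about the length of those printed above is shorter than a usual sequencing fragment, and reads of uncut precursor and of tRNA cannot be told apart in these counts.

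The labels do not say whether poly(A) RNA was selected. Of 14 entries for nuclear RNAs with little or no poly(A) tail, listed after the data were seen, 12 were under 1 CPM in every library and 7 were at 0. The signal recognition particle RNA gene RN7SL2 stood at 5.06 and 923 CPM in the controls and at 3.75 and 14.7 CPM in the knockdown libraries, so Control_sh replicate 2 stood apart. In 71 histone genes taken by name (HIST1 to HIST4), a family whose mRNAs mostly lack the tail, levels were summed. The sum was 67.2 and 73.5 CPM in the controls and 52.4 and 60.7 CPM after knockdown. RN7SL3, the other entry not under 1 CPM in every library, had 3 and 376 counts in the controls and 0 and 3 after knockdown. Among the entries under 1 CPM, SNORD3A had 0 and 2 counts in the controls and 7 and 4 after knockdown, and RNU4-2 had 0 and 0 against 5 and 1, both too few to read a difference from. The part of RNA selection in the MT-RNR1 result was not tested. Without Control_sh replicate 2, the log2 fold changes of MT-RNR1, MT-TV and MT-TE were 2.99, 2.62 and 1.57.

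Over all 37 genes, 33 passed the filter on low counts, and 3 of these were called higher and 0 lower. That is 9.09% called higher, against 0.653% of all 16091 genes tested (3.05% in either direction and 2.4% lower). The groups did not overlap in 12 genes that were higher and 4 that were lower in the knockdown libraries, where 23.9% and 27.9% of all genes tested did not overlap in these directions (51.8% in either). In the 33 genes 21 log2 fold changes were positive and 12 negative, with a median of 0.20, beside 47.5% positive and a median of −0.04 over all genes tested. In 13 of the 33 genes the difference was smaller than its SE, and 12 of these changed sign under at least 1 alternative, so no direction is given for them.

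**Figure D4:**
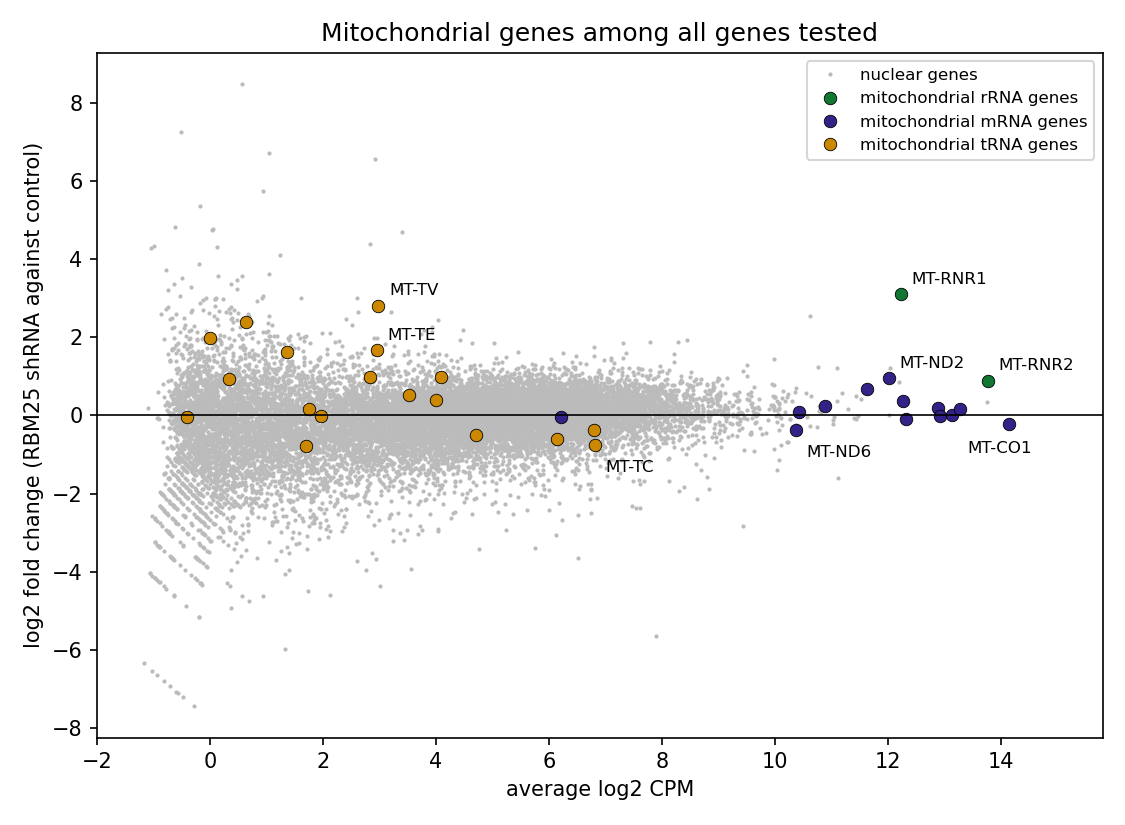
Log2 fold change against average log2 CPM for all 16091 genes tested, with nuclear genes in grey and mitochondrial genes coloured by kind. MT-RNR1 lies at 3.11 among highly expressed genes near 0.

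The number of mitochondrial genes called depended on the setting. With GC offsets 7 were called higher (21.2% of 33, against 11.3% of all genes tested), namely MT-RNR1, MT-TV, MT-TE, MT-RNR2, MT-TL1, MT-ND1 and MT-ND2. In the same fit MT-TN, MT-TC and MT-ND6 were called lower (9.09%, against 16.5%). Across the 10378 nuclear and mitochondrial genes with an average log2 CPM above 3 and a GC value, Spearman's rho between log2 fold change and GC content was −0.305, and over the 33 mitochondrial genes it was −0.0755. Without a filter on low counts 7 of the 37 genes were called, against 4.65% of all genes, and with DESeq2 4 were, against 6.74%. Without Control_sh replicate 1, 14 mitochondrial genes were called, 11 higher and 3 lower, against 15.5% of all genes tested. The number was 5 without Control_sh replicate 2 (6.64% of all genes), and 2, MT-RNR1 and MT-TV, without RBM25_sh replicate 1 (1.51%) or replicate 2 (2.27%).

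Nuclear genes whose products act on mitochondrial RNA or DNA were read from the same fit. Of 42 such factors, 0 passed the edgeR threshold and 2 passed with DESeq2. Of all genes tested, these fits called 3.05% and 6.74%. At least 3026 of all 16091 genes tested had an unadjusted edgeR p below 0.05, as did 8 of these factors. The median log2 fold change of the factors was 0.30, with 32 positive, where 47.5% of all genes tested were positive. The groups did not overlap in 22 factors that were higher and 4 that were lower, where 23.9% and 27.9% of all genes tested did not overlap in these directions. FASTKD2, an RNA-binding protein of mitochondrial RNA granules needed for MT-RNR2 rRNA and ribosome assembly, stood at 36.6 and 24.3 CPM in the controls and at 75.1 and 62.1 CPM in the knockdown libraries (1.17 ± 0.31, edgeR adjusted p = 0.0715). PDE12, a mitochondrial poly(A)-removing enzyme, stood at 61.5 and 40.8 against 110 and 103 CPM (1.06 ± 0.30, edgeR adjusted p = 0.0851). MRM1, a methyltransferase of the MT-RNR2 rRNA, stood at 7.84 and 12.4 against 3.35 and 4.78 CPM (−1.31 ± 0.38, edgeR adjusted p = 0.0896). SSBP1, the mitochondrial single-stranded DNA-binding protein, stood at 47.0 and 56.0 against 102 and 80.0 CPM (0.82 ± 0.28, edgeR adjusted p = 0.137). With GC offsets 10 factors were called higher, FASTKD2 and PDE12 among them, and 3 lower, MRM1 among them, in a fit that called 11.3% of all genes tested higher and 16.5% lower.

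The nuclear partners of the mitochondrially encoded subunits were read in the same way. Of 74 nuclear subunits of complexes I, III, IV and V, 0 passed the edgeR threshold and 1 passed with DESeq2. Of all genes tested, these fits called 3.05% and 6.74%. While at least 3026 of all 16091 genes tested had an unadjusted edgeR p below 0.05, so did 1 of these subunits. The median log2 fold change of the 74 subunits was 0.01, with 39 positive, beside −0.04 and 47.5% positive over all genes tested. The smallest adjusted p belonged to NDUFA13, a complex I subunit at a low level, with 4.17 and 9.76 CPM in the controls and 0.804 and 2.80 CPM after knockdown (−1.94 ± 0.60, edgeR adjusted p = 0.109). ATP5MC1, a subunit of the ATP synthase ring, had a log2 fold change of 0.68 ± 0.31, the complex I subunit NDUFAB1 had 0.57 ± 0.27, and neither was past the threshold (edgeR adjusted p = 0.245 and 0.264). With GC offsets 4 subunits were called higher, NDUFAB1 among them, and 5 lower, NDUFA13 among them. That fit called 11.3% of all genes tested higher and 16.5% lower.

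The nuclear genome holds copies of mitochondrial genes, and reads could have been split between a gene and its copy. The 407 genes named as such copies summed to 7034 and 6137 counts in the controls and to 12258 and 11985 counts in the knockdown libraries. The copy with the most counts was MTND2P28 (chr1:629640-630683), named for MT-ND2, at 208 and 122 CPM against 410 and 444 CPM (1.37 ± 0.32, edgeR adjusted p = 0.051). MTATP6P1 (chr1:633696-634376) differed by 0.80 ± 0.28 on the log2 scale (edgeR adjusted p = 0.146) and MTCO1P12 (chr1:631074-632616) by 0.05 ± 0.30 (edgeR adjusted p = 0.947). No listed gene carried a copy name for MT-RNR1, MT-TV or MT-TE, and the 13 MTRNR2L genes named for MT-RNR2 had 18, 1, 10 and 12 counts, so counts on these 13 genes were few beside those of MT-RNR2.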

How the data were processed

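Expression was measured by RNA-seq in 4 libraries, grouped by sample title. The authors deposited whole-number counts per gene and FPKM per gene for each library. These FPKM carry the same counts, scaled by the gene length in the file and by 1 factor per library (0.9511 to 1.1 times the library total). TopHat2 2.0.9, Bowtie2 2.0.6, Cuffdiff 2.1.1 and Cufflinks 2.1.1 were used, per the submitters' processing notes, with no roles stated. How reads were counted, whether by strand, on which build and with what treatment of multiple matches is not given in the sources used here. All 58735 listed positions equal those of GENCODE 29 on GRCh38, which gave coordinates and sequences.

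Counts were fitted with edgeR 4.0.16 in R 4.3.3 (filterByExpr, TMM, quasi-likelihood F test, group as the only term). Benjamini-Hochberg adjustment ran over all 16091 genes tested, with a threshold of 0.05. The residual degrees of freedom were 2. The fit was tested on simulated data. Ratios per library were compared by exact two-sided permutation.

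Alternatives were DESeq2 size factors, library totals, TMM from nuclear genes, no filter, at least 1 CPM in each library of either group, DESeq2 1.42.0, limma-voom (limma 3.58.1), limma-trend on log2(FPKM + 1) or log2(FPKM + 0.1), a replicate block, offsets for GC content (lowess, span 0.3), both together, and leaving out each library. A fit that leaves out a library keeps 1 library in its group, so its p-values rest on the spread of the other group alone. Members, lists and alternatives were chosen with earlier results of these data known. Text names all 37 genes, RBM25, up to 4 genes per nuclear list by adjusted p and the 3 nuclear copies with the most counts. Of these, 1 gene is not reported here. RN7SL2 and RN7SL3 were named after their values were seen. Figures were drawn with matplotlib 3.10.9.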

Additional observations from a re-analysis of the deposited data

How the results depend on the processing

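MT-RNR1 and MT-TV kept their call and direction under all 16 alternatives. The number of mitochondrial genes called (3) was 7 without a filter, 10 with GC offsets and 2 to 14 when each library was left out, the highest without Control_sh replicate 1. All genes called (491) were 1438 without a filter, 1085 with DESeq2, 215 with limma-trend on log2(FPKM + 1) and 268 on log2(FPKM + 0.1), 4485 with GC offsets, and 243 to 2497 without 1 library. The factors called (0) were 3 without a filter, 2 with DESeq2, 13 with GC offsets and 0 to 5 without 1 library. The nuclear subunits called (0) were 2, 1, 9 and 0 to 9 in these settings. RBM25 had a log2 fold change of −1.46 with limma-trend and a pseudocount of 1 (adjusted p = 0.0572) and of −1.96 to −1.53 without 1 library, with edgeR adjusted p of 0.0797 without RBM25_sh replicate 1 and 0.152 without RBM25_sh replicate 2. The log2 ratio of rRNA to mRNA differed by 1.22 with counts and by 1.39 with FPKM. The MT-TR log2 fold change turned to −0.0075 with GC offsets, and that of MT-TS2 ran from −1.40 to 0.31 without 1 library. The causes were not tested.

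Same-numbered libraries deviated together (correlation 0.47 over the genes tested), but 2 pairs and no label of a shared culture do not establish a pairing. With the replicate block 5722 of 16091 genes were called, among them 14 mitochondrial genes, 18 factors and 22 nuclear subunits, and with GC offsets and the replicate block 6424, 16, 19 and 23. The share differences kept their sign without each library, with log2 differences of −0.73 to −0.25 for MT-ND6 against the plus-strand mRNA genes, −0.92 to −0.27 for the tRNA share and 0.02 to 0.42 for the mitochondrial share of the library. Scaling by library totals moved the median of all genes by −0.11 on the log2 scale. Depth limits the tRNA genes, many of which had fewer than 100 counts in every library.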
